A study of Mus musculus with 2 samples.

Results

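The 6 genes described here encode the calcium-activated phosphatase calcineurin's alpha catalytic subunit (Ppp3ca), its feedback regulator (Rcan1) and the 4 calcineurin-dependent NFAT transcription factors (Nfatc1, Nfatc2, Nfatc3 and Nfatc4). They were chosen by name from 22401 features of 2 UMI (unique molecular identifier) matrices of mouse hearts at E11.5 (embryonic day), and all 6 were found in both. The control library came from hearts whose label reads Hand2fx/+ and R26RmTmG/wt, with no Cre named. The H2CKO library came from hearts labelled Nfatc1Cre/wt, Hand2fx/fx and R26RmTmG/wt. Both genotypes therefore share 1 or more floxed Hand2 alleles and 1 mTmG allele, a reporter that switches from membrane Tomato to membrane GFP where Cre has acted. Nfatc1-driven Cre acts in the endocardium, so any Hand2 change outside endocardial cells and their descendants is not targeted by design. The label writes the Cre as an allele of Nfatc1 and does not say how it was placed there. For Nfatc1 itself, a difference from losing Hand2 and a difference from carrying that allele cannot be told apart with these 2 libraries. Per the labels' protocols, Cre status was read from the reporter's fluorescence, hearts were held on ice before TrypLE dissociation, and libraries were made with a 10x Genomics 3′ kit. How many embryos entered each library is not in the labels, and each genotype has 1 library, so no difference below has a replicate check.

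When calcium rises in a cell, calmodulin activates calcineurin, which removes phosphates from NFAT proteins and lets them enter the nucleus. Kinases of the GSK3, DYRK and casein kinase families add the phosphates back and send NFAT out again, and RCAN1 binds and restrains calcineurin. In the embryonic heart NFATC1 is a classic marker of the endocardium and is needed for the valves, while calcineurin and the other NFAT proteins act in muscle and in the myocardium beneath the cushions.

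The control matrix held 14114 barcodes and 195825720 UMIs, and the H2CKO matrix 13885 barcodes and 201477256 UMIs. A total of 57 barcodes occurred in both, 28 of them among the cells kept. After filtering and doublet removal 8793 control and 11534 H2CKO cells remained, at medians of 16223 and 13430 UMIs. Clusters were named from marker lists as endothelial-, mesenchymal-, cardiomyocyte-, epicardial-, white blood cell- and erythroid-like. Clusters led by Rspo3 and Sema3c, by Tcf21, and 1 of shallow cells stayed unnamed. All 6 genes and the other pathway genes were left out of the clustering, so levels by class are not built into the classes. The endothelial-like class held 373 control and 750 H2CKO cells with all 12 endothelial markers detected, Pecam1, Cdh5 and Tie1 among them. Of the 12 white blood cell markers, 7 had a UMI in the control (summed to 13.5 CPM, UMIs of a gene or list per 1000000 UMIs of the class) and 10 in H2CKO (16.9 CPM), with Ptprc and C1qa at 0 in both. The endothelial markers differed between the libraries in both directions. Pecam1, Cdh5, Tek, Tie1 and Eng were lower in H2CKO, and Kdr, Emcn, Egfl7, Esam, Ecscr, Icam2 and Cldn5 were higher. Pecam1 stood at 429 CPM in the control and 225 CPM in H2CKO, Emcn at 147 and 477 CPM, and Cldn5 at 13.1 and 89.7 CPM. Other cells' transcripts in the class also differed by library. The 12 erythroid markers summed to 16733 CPM in the control and 45651 CPM in H2CKO. The 12 mesenchymal markers summed to 2372 and 509 CPM. Their part in the values below was not tested. Erythroid-like clusters were nearly all of 1 library each, so a ratio within them sets unlike clusters side by side. In the endothelial-like class Hand2 stood at 229 CPM in the control and 11.3 CPM in H2CKO, and GFP at 16.1 and 1190 CPM, so neither gene went against the labels.

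Nfatc1 (ENSMUSG00000033016, chr18:80606205-80713071, minus strand, GRCm38) was chiefly an endothelial-like transcript. The control endothelial-like cells held 1363 Nfatc1 UMIs, or 221 CPM (95% exact Poisson interval 210 to 233). The mesenchymal-like class came next with 25.9 CPM, so endothelial-like cells were 8.55-fold higher (exact conditional interval 7.75 to 9.44). Intervals throughout cover counting error only, not differences between embryos. White blood cell-like cells held 19.4 CPM and the Tcf21 cluster 12.5 CPM, and neighbours in the order of mesenchymal-like, white blood cell-like and Tcf21 cells were not separated beyond counting error. Cardiomyocyte-like cells held 1.72 CPM, epicardial-like cells 2.85 CPM, the Rspo3-Sema3c cluster 3.14 CPM and erythroid-like cells 0.806 CPM. The factor over the next named class depends on which endothelial cells are taken: with stricter cells (1500 or more genes, no more than 5% of UMIs mitochondrial) it was 2.94, and with the cells of the authors' embedding 3.55. In both of those settings a further cluster, led by Stmn2 and Wnt4, stayed unnamed and outside the class.

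In H2CKO the Nfatc1 level of endothelial-like cells was 86.0 CPM (813 UMIs, interval 80.1 to 92.1), 2.57-fold below the control (2.36 to 2.81; log2 ratio -1.31). The class remained the highest, 5.59-fold (3.52 to 9.49) above the Tcf21 cluster, which held 15.4 CPM of Nfatc1. Over the next named class the H2CKO factor was 5.91, and it was 3.22 with stricter cells and 4.17 with the cells of the authors' embedding. Endocardial cells also give rise to cushion mesenchyme, and GFP in mesenchymal-like cells was 14.98 CPM in the control and 796 CPM in H2CKO. Nfatc1 there stood at 25.9 CPM in the control and 12.8 CPM in H2CKO (log2 ratio -0.79, ratio 0.410 to 0.595). In the same mesenchymal-like cells the 12 erythroid markers summed to 12009 CPM in the control and 56281 CPM in H2CKO, and the 12 mesenchymal markers to 7541 and 3486 CPM. Their part in the ratios of that class was not tested. In the other classes the interval of the Nfatc1 ratio included 1, except in erythroid-like cells, where both levels were under 1 CPM. As processed here, Nfatc1 was the 1 member of 4 tested that lay past 2-fold in endothelial-like cells. It was not past 2-fold with stricter cells (-0.84, where Ppp3ca was, at -1.05), with the cells of the authors' embedding (-0.73), without the trend of the ratios with gene span, a gene's length from start to end (-0.70), or with the class's subclusters in the same mix in both libraries (-0.87). Among all 6544 genes tested there, 7.78% were past 2-fold lower and 0.886% past 2-fold higher. A gene was tested at 20 or more CPM and 20 or more UMIs in the higher library. The median ratio of those 6544 genes was -0.29 on the log2 scale, and 2.29% of them had a lower ratio than Nfatc1.

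**Figure D1:**
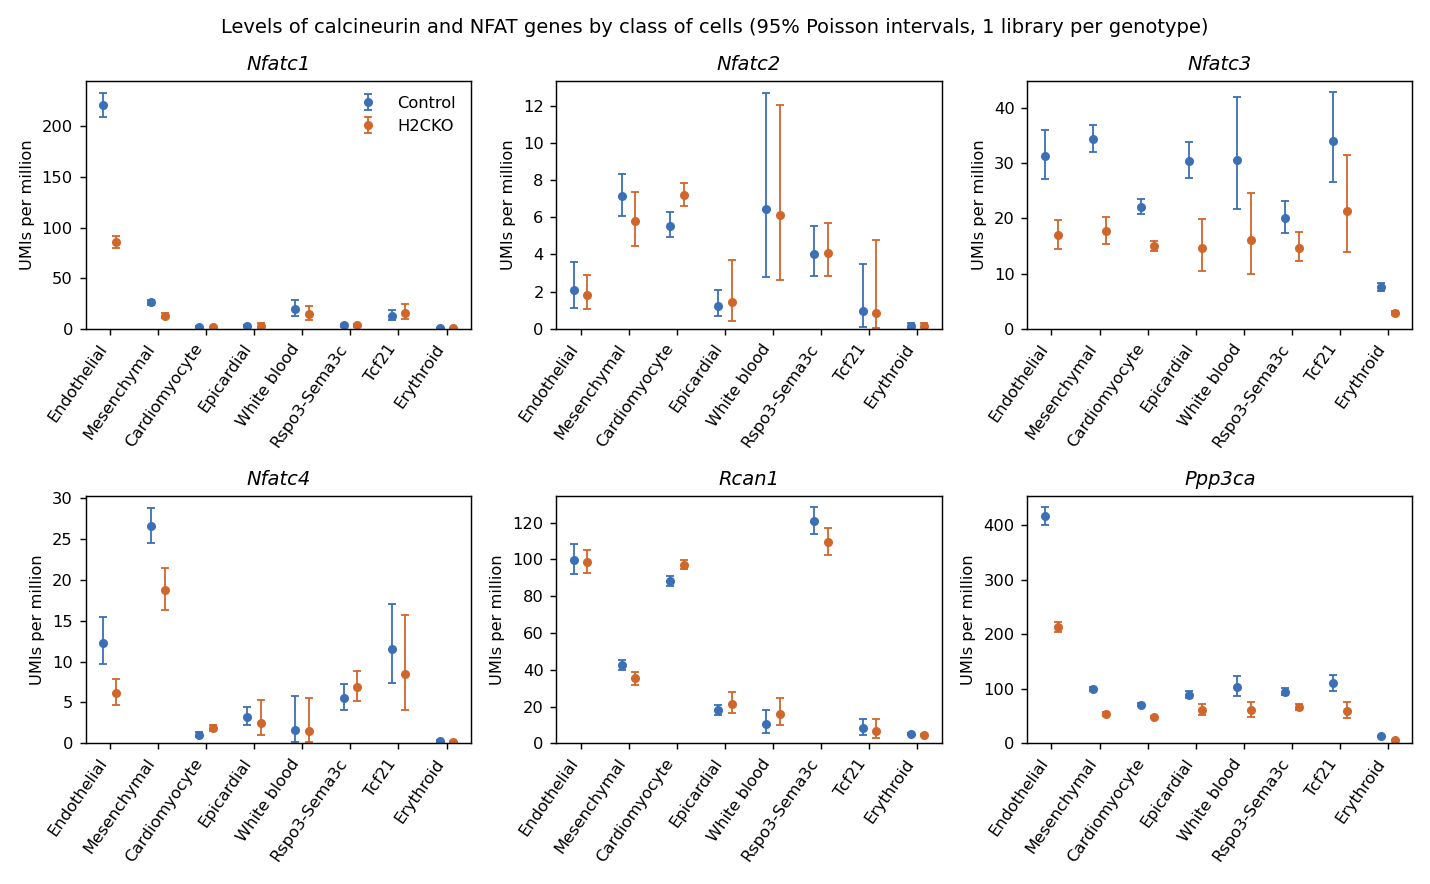
Level of each of the 6 genes in CPM (y axis, linear, own scale per gene) in 8 classes of cells (x axis), control in blue and H2CKO in orange, with 95% exact Poisson intervals. Nfatc1 and Ppp3ca peak in endothelial-like cells and are lower there in H2CKO, Nfatc4 peaks in mesenchymal-like cells, and Rcan1 is at similar levels in both libraries.

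Shares of cells were counted as well. Of the control endothelial-like cells 76.1% held a Nfatc1 UMI (exact binomial interval 71.5 to 80.4), and of the H2CKO cells 49.5% (45.8 to 53.1), at medians of 12772 and 10255 UMIs. With every cell thinned to 5000 UMIs, which left out 21 control and 58 H2CKO cells, the Nfatc1 shares were 53.7% and 30.2%. In erythroid-like cells, which should lack Nfatc1, the unthinned shares were 1.45% and 0.483% at medians of 18371.5 and 13223.5 UMIs, and the thinned shares 0.534% and 0.188%. The most Nfatc1 UMIs in any endothelial-like cell were 37 in the control and 17 in H2CKO.

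The endothelial-like class was not of the same make-up in the 2 libraries. A second round of clustering, added after the data were seen, divided it into 4 subclusters. Subcluster 1, led by Stmn2, Wnt4 and Ccdc141 and with most Klf2 (2217 CPM in the control, 2445 CPM in H2CKO), held 59.2% of the control and 33.5% of the H2CKO endothelial-like cells. Subcluster 2, led by Nr2f2, Emcn and Klhl4, held 22.5% and 39.5%. Subcluster 3, led by Igfbp3 and by cell-cycle genes such as Cenpf, held 16.4% and 22.4%, and the remainder were cells rich in globin transcripts. The erythroid markers summed to 4319 and 16686 CPM in subcluster 1 and to 13200 and 15629 CPM in subcluster 2, and the mesenchymal markers to 3133 and 1086 CPM and to 1343 and 279 CPM. Their part in the subcluster values was not tested.

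Nfatc1 was highest in subcluster 1 in both libraries. It stood at 295 CPM in the control and 168 CPM in H2CKO there (log2 ratio -0.79, 1.76-fold lower with an interval of 1.58 to 1.96). In subcluster 2 Nfatc1 stood at 120 and 55.9 CPM (log2 ratio -1.04), and in subcluster 3 at 77.0 and 41.0 CPM (log2 ratio -0.84). H2CKO was lower in each of these subclusters, with Poisson intervals that did not overlap. Weighting the subclusters equally in both libraries gave Nfatc1 at 187 CPM in the control and 99.8 CPM in H2CKO, a log2 ratio of -0.87 against -1.31 without weighting. With a finer division of the class the ratio at the same mix was also -0.87. The mix of subclusters and the level within each both entered the unweighted value.

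**Figure D2:**
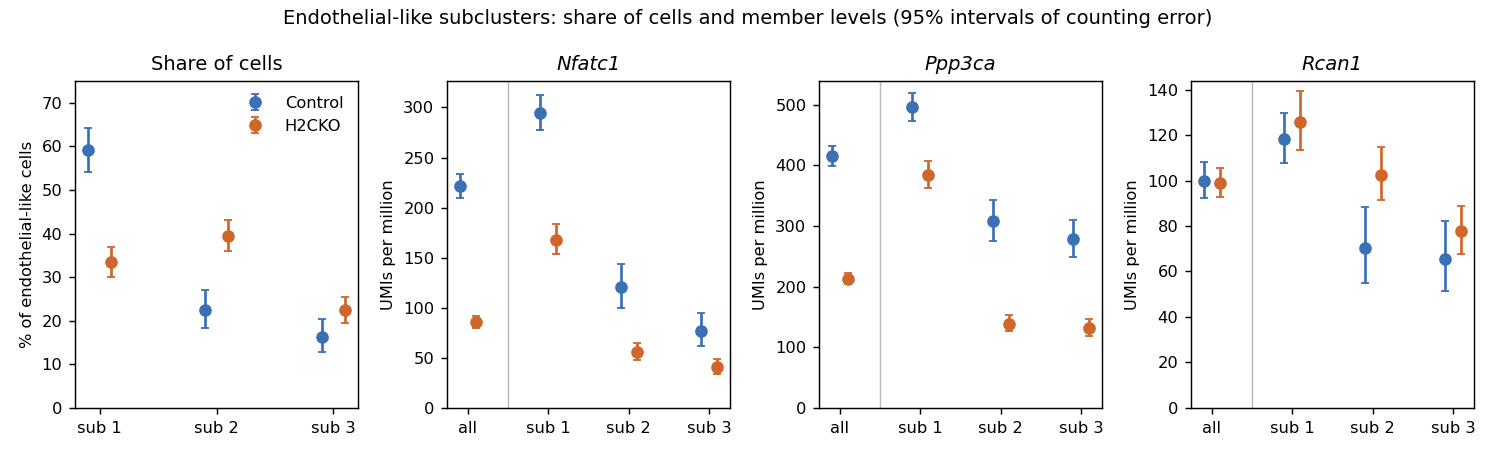
Left, share of endothelial-like cells in subclusters 1 to 3 (y axis, percent, with exact binomial intervals); right, Nfatc1, Ppp3ca and Rcan1 in CPM in the whole class and in each subcluster (exact Poisson intervals), control in blue and H2CKO in orange. Subcluster 1 has the most of all 3 genes and is a smaller share of H2CKO; Nfatc1 and Ppp3ca are lower in H2CKO within each subcluster, and Rcan1 is not.

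Within a library, endothelial-like cells that held a Nfatc1 UMI were set against those that did not, all at 5000 UMIs. This split was chosen after the data were seen, and Nfatc1 itself is not compared. It was made over the whole class and not within subclusters. Nfatc1, Ppp3ca and Klf2 were each highest in subcluster 1, and the part of the subcluster mix in these ratios was not tested. Ppp3ca was 1.36-fold higher in the cells with Nfatc1 in the control (478 against 351 CPM, interval 1.17 to 1.59) and 1.36-fold higher in H2CKO (258 against 190 CPM, 1.17 to 1.59). Klf2, a flow-responsive factor strong in endocardium, was 1.59-fold higher with Nfatc1 in the control and 1.75-fold in H2CKO. Tbx20, a cardiac T-box factor, was 1.52-fold and 2.29-fold higher. Emcn and Cldn5, an endothelial sialomucin and a tight-junction protein, were lower with Nfatc1, Emcn at ratios of 0.489 and 0.675 and Cldn5 at 0.299 and 0.571. Not every gene of the endocardial and vascular lists followed these: Npr3 was at 0.882 (0.712 to 1.09) and 0.946 (0.690 to 1.28), and Sox17 at 1.17 (0.700 to 1.98) in the control and 0.575 (0.407 to 0.797) in H2CKO. Pecam1 was at 1.15 and 1.20, and Cd34 at 1.40 and 1.11. For Rcan1 the interval of the ratio included 1, at ratios of 1.33 (0.964 to 1.86) in the control and 1.01 (0.804 to 1.27) in H2CKO.

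Ppp3ca (ENSMUSG00000028161, chr3:136670124-136937727, plus strand) was found in every class and was also highest in endothelial-like cells. The control held 416 CPM (2562 UMIs, interval 400 to 432) there, 3.77-fold (3.30 to 4.34) above the Tcf21 cluster with 110 CPM. Between neighbours in the order of the Tcf21 cluster, white blood cell-like (103 CPM), mesenchymal-like (99.6 CPM), Rspo3-Sema3c (94.8 CPM) and epicardial-like cells (89.4 CPM), the Ppp3ca levels were not separated beyond counting error. Cardiomyocyte-like cells held less, 70.6 CPM (epicardial-like over cardiomyocyte-like 1.18 to 1.36), and erythroid-like cells 13.0 CPM. In H2CKO every one of these levels was lower: 213 CPM of Ppp3ca in endothelial-like cells, 53.5 CPM in mesenchymal-like, 47.9 CPM in cardiomyocyte-like and 61.5 CPM in epicardial-like cells. The log2 ratios of Ppp3ca were -0.95 in endothelial-like cells (1.95-fold lower, 1.84 to 2.07), -0.84 in mesenchymal-like, -0.73 in white blood cell-like, -0.52 in cardiomyocyte-like and -0.50 in epicardial-like cells. None was past 2-fold. The endothelial-like ratio of Ppp3ca was again tied to the mix of subclusters, at -0.36 in subcluster 1 (496 to 384 CPM), -1.12 in subcluster 2 (308 to 139 CPM) and -1.05 in subcluster 3 (278 to 132 CPM), and at -0.64 when both libraries were given the same mix. Of the 4 members tested in each subcluster, 0 were past 2-fold lower in subcluster 1 (3.23% of all genes tested there), 2 in subcluster 2, Nfatc1 and Ppp3ca (11.3%), and 1 in subcluster 3, Ppp3ca (8.56%).

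Among endothelial-like cells a Ppp3ca UMI was found in 93.0% (control) and 76.9% (H2CKO), and at 5000 UMIs per cell in 78.4% and 59.0%. For Rcan1 the shares were 61.9% and 61.7%, and 31.5% and 39.6% at 5000 UMIs. In erythroid-like cells at 5000 UMIs the Ppp3ca shares were 6.03% and 2.44% and the Rcan1 shares 2.21% and 2.46%, a level at which free RNA cannot be told apart from expression.

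Rcan1 (ENSMUSG00000022951, chr16:92391953-92470867, minus strand) is transcribed from several starts, and the isoform from an internal start is known to be induced by calcineurin and NFAT. The 250 bases before the distal and the internal RefSeq start (GRCm38.p6) are printed here, 5′ to 3′ on the minus strand, because the 5-base core GGAAA that NFAT proteins bind (TTTCC on the other strand) differs in number between them. Capitals mark that core. Both stretches lie in introns of longer Rcan1 transcripts of the GENCODE annotation.
Rcan1 distal start, chr16:92466170-92466419: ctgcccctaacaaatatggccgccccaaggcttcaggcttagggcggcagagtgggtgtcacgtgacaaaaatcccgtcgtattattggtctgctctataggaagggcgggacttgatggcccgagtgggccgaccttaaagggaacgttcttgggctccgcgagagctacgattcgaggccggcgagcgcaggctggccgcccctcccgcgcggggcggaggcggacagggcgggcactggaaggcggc
Rcan1 internal start, chr16:92400079-92400328: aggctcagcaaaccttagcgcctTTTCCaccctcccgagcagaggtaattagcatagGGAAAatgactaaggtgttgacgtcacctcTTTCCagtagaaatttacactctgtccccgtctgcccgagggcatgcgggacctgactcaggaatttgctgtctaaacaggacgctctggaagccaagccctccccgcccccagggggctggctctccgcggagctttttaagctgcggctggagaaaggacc
The distal stretch held 0 cores and the internal stretch 3, which begin 227, 193 and 163 bases before the start. Of 32851 promoter stretches of the same length in the RefSeq table, 55.6% held 1 or more cores on either strand and 6.39% held 3 or more. RefSeq stretches were matched for 4 of the 6 genes: Nfatc4 held 3 cores, the Nfatc2 starts 3 and 1, and the Nfatc3 starts 1 and 0. A match of 5 letters is a description of the sequence, not evidence of binding. The Rcan1 transcripts from both starts end within 6 bases of each other, so counts from the 3′ end do not say which start was used.

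The Rcan1 transcript was highest in the Rspo3-Sema3c cluster, at 121 CPM in the control (interval 114 to 128) and 110 CPM in H2CKO (103 to 117). That cluster was as rich in cardiomyocyte markers as the cardiomyocyte-like class, the 12 markers summing to 56611 and 51899 CPM in it and to 52385 and 54077 CPM in the class. Endothelial-like cells came next with 99.97 CPM in the control (92.2 to 108) and 98.9 CPM in H2CKO (92.6 to 105), a log2 ratio of -0.02 whose ratio interval was 0.892 to 1.10. Cardiomyocyte-like cells held 88.3 and 97.2 CPM, a log2 ratio of 0.13 (ratio 1.06 to 1.14). In H2CKO the endothelial- and cardiomyocyte-like levels were not separated beyond counting error (1.02-fold, 0.949 to 1.09). Mesenchymal-like cells held 42.5 and 35.4 CPM (log2 ratio -0.24), epicardial-like cells 18.0 and 21.5 CPM, and erythroid-like cells 5.21 and 4.42 CPM. Among the genes tested in endothelial-like cells, 68.8% had a lower ratio than Rcan1.

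Rcan1 levels also differed between subclusters. Within endothelial-like cells subcluster 1 held 118 CPM in the control and 126 CPM in H2CKO, subcluster 2 70.2 and 102 CPM, and subcluster 3 65.6 and 77.6 CPM. The Rcan1 ratio in subcluster 2 was 1.46 (1.13 to 1.91), and the intervals of the other ratios included 1. At the same mix of subclusters Rcan1 stood at 90.7 CPM in the control and 106 CPM in H2CKO, a log2 ratio of 0.21. Among mesenchymal-like cells, Rcan1 was highest in subclusters 3 and 4, which are led by genes such as Tagln and Inhba, an actin-binding protein and an activin subunit, at 79.5 and 67.6 CPM in the control and 62.1 and 43.3 CPM in H2CKO. In mesenchymal subcluster 1, led by Htra1 and Btn1a1, the order of libraries was the other way round, with 21.8 CPM of Rcan1 in the control and 37.8 CPM in H2CKO (ratio 1.73, 1.32 to 2.28). In cardiomyocyte-like subclusters with 50 or more cells in both libraries, Rcan1 lay between 75.8 and 107 CPM in the control and between 80.7 and 120 CPM in H2CKO.

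Nfatc3 (ENSMUSG00000031902, chr8:106058840-106130537, plus strand) was the most evenly spread of the NFAT genes. In the control it lay between 20.1 CPM in the Rspo3-Sema3c cluster and 34.5 CPM in mesenchymal-like cells in every class but the erythroid-like (7.55 CPM) and the shallow cluster. In H2CKO the same classes held between 14.6 and 21.3 CPM of Nfatc3. The log2 ratios of Nfatc3 were -0.80 in mesenchymal-like, -0.73 in endothelial-like, -0.86 in epicardial-like, -0.76 in white blood cell-like, -0.57 in the Tcf21 and -0.35 in the Rspo3-Sema3c cluster and -0.44 in cardiomyocyte-like cells. Every one of these was below 0 and none past 2-fold. Within the mesenchymal subcluster led by Htra1 and Btn1a1, Nfatc3 stood at 34.1 CPM in the control and 11.97 CPM in H2CKO (log2 ratio -1.20), the 1 of 5 members tested there that was past 2-fold lower, where 6.62% of all genes were. The gene overlaps Esrp2 on the other strand, and the sources used here do not say whether counting used strand.

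Nfatc4 (ENSMUSG00000023411, chr14:55823144-55833943, plus strand) was chiefly a mesenchymal-like transcript. It stood at 26.6 CPM in control mesenchymal-like cells, 2.16-fold (1.70 to 2.78) above endothelial-like cells with 12.3 CPM, and at 18.8 CPM in H2CKO mesenchymal-like cells (log2 ratio -0.41). The endothelial-like class as a whole held 12.3 CPM (76 UMIs) in the control and 6.13 CPM (58 UMIs) in H2CKO, under the filter in both. At the same mix of subclusters these levels were 10.9 and 7.55 CPM. Of the endothelial-like cells, those of subcluster 1 held most Nfatc4, 16.4 CPM in the control and 14.0 CPM in H2CKO. Those of subcluster 3 held 2.62 and 1.80 CPM. In the other classes with a name Nfatc4 was under 4 CPM in both libraries. The control margin of mesenchymal-like cells over the next named class was 8.54-fold with stricter cells and 7.92-fold with the cells of the authors' embedding, where the cluster led by Stmn2 and Wnt4 was outside the endothelial-like class. It was 1.58-fold with each cell thinned to 5000 UMIs.

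Nfatc2 (ENSMUSG00000027544, chr2:168476410-168601657, minus strand) had the lowest peak level of the 6 members and passed the filter in no class. It was not the lowest in each class, since cardiomyocyte-like cells held less Nfatc1 (1.72 and 1.73 CPM) and less Nfatc4 (1.07 and 1.86 CPM). Its highest level in any class was 7.19 CPM, in H2CKO cardiomyocyte-like cells (531 UMIs), against 5.56 CPM in the control (271 UMIs), a ratio of 1.29 (1.12 to 1.503). Mesenchymal-like cells held 7.16 CPM of Nfatc2 in the control and 5.79 CPM in H2CKO, with a ratio interval of 0.598 to 1.08. Endothelial-like cells held 2.11 and 1.80 CPM from 13 and 17 UMIs, too few to tell levels this close apart.

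The direction of these ratios has to be read against gene span. In endothelial-like cells the log2 ratio over 6542 genes fell with the length of the gene in the genome, with a Spearman rho of -0.490 across genes, which are not independent replicates. A lowess trend gave -0.61 at the span of Nfatc1 (107 kb), -0.63 at that of Ppp3ca (268 kb), -0.60 at that of Rcan1 (78.9 kb), -0.59 at that of Nfatc3 (71.7 kb) and -0.06 at that of Nfatc4 (10.8 kb). Against this trend Nfatc1 was at -0.70, Ppp3ca at -0.32, Nfatc3 at -0.14 and Rcan1 at 0.58. The same relation held in mesenchymal-like cells (rho -0.554) and cardiomyocyte-like cells (rho -0.496). Against the trend of its own class, Nfatc3 was at -0.25 in mesenchymal-like, -0.33 in epicardial-like and -0.07 in cardiomyocyte-like cells. Ppp3ca was at -0.18 in mesenchymal-like and -0.13 in cardiomyocyte-like cells, and Nfatc1 at -0.20 in mesenchymal-like cells. Nfatc4 in mesenchymal-like cells was at -0.38 against the trend, beside -0.41 as processed. What gives rise to the trend was not tested, and with 1 library per genotype it cannot be told apart from genotype.

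**Figure D3:**
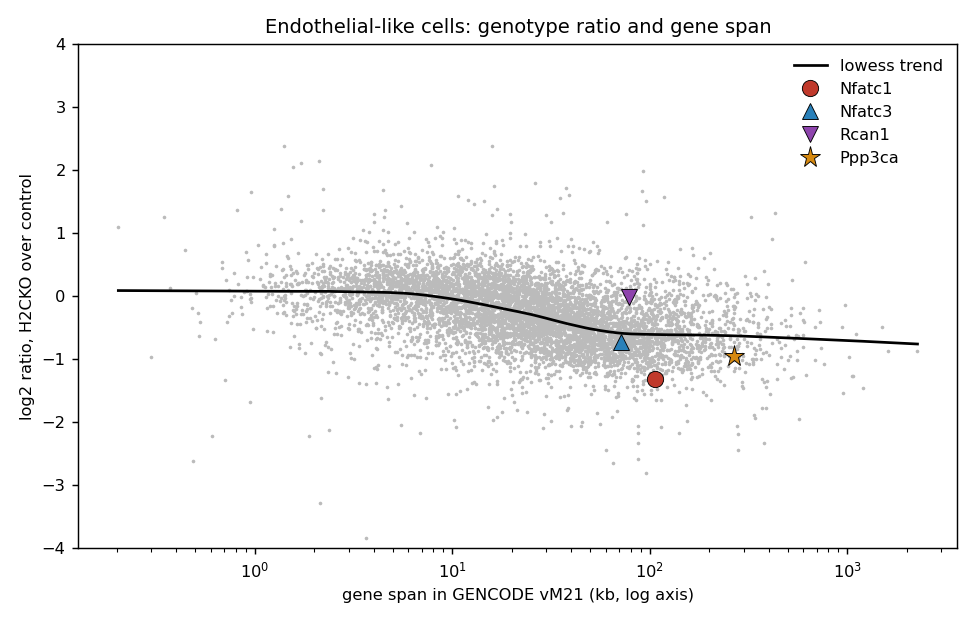
Log2 ratio of H2CKO over control in endothelial-like cells (y axis) against gene span in kb (x axis, log scale) for the tested genes with a span (grey), their lowess trend (line) and the 4 tested members. Nfatc1 lies 0.70 and Ppp3ca 0.32 below the trend, Nfatc3 lies close to it and Rcan1 lies 0.58 above it.

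Outside the endothelial-like class no tested member was past 2-fold in a whole class as processed here. In mesenchymal-like cells 5 members were tested and 0 were past 2-fold, where 3.57% of 6531 genes were past 2-fold lower and 0.459% higher. In cardiomyocyte-like cells 3 were tested and 0 past 2-fold (0.541% of 5549 genes lower, 0.234% higher), and in epicardial-like cells 3 were tested and 0 past 2-fold (4.56% of 6341 lower, 1.47% higher). The epicardial-like values moved with the processing: with each cell named by its own markers Rcan1 was at 1.01, with CPM plus 1 Nfatc3 was at -1.01, and without the span trend Ppp3ca was at 0.10. In white blood cell-like cells 2 were tested and 0 past 2-fold (5.35% of 5979 lower, 1.09% higher). In the Rspo3-Sema3c cluster 3 and in the Tcf21 cluster 2 were tested and 0 were past 2-fold lower (1.59% and 7.24% of all genes). The median log2 ratio of the tested members was -0.84 in endothelial-like, -0.79 in mesenchymal-like and -0.44 in cardiomyocyte-like cells, beside medians of -0.29, -0.24 and -0.17 over all genes tested there. Members that passed the filter are not all 6, and their medians are descriptions. The filter, the same for all genes, looks at the higher library only. The median member was Nfatc1 in mesenchymal-like cells (25.9 and 12.8 CPM) and Nfatc3 in cardiomyocyte-like cells (22.1 and 14.9 CPM). Both passed it in the control alone, as did Nfatc3 in endothelial-like cells (31.3 and 16.9 CPM). Rcan1 in epicardial-like cells passed in H2CKO alone (18.0 and 21.5 CPM). The part of the filter in these medians was not tested.

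**Figure D4:**
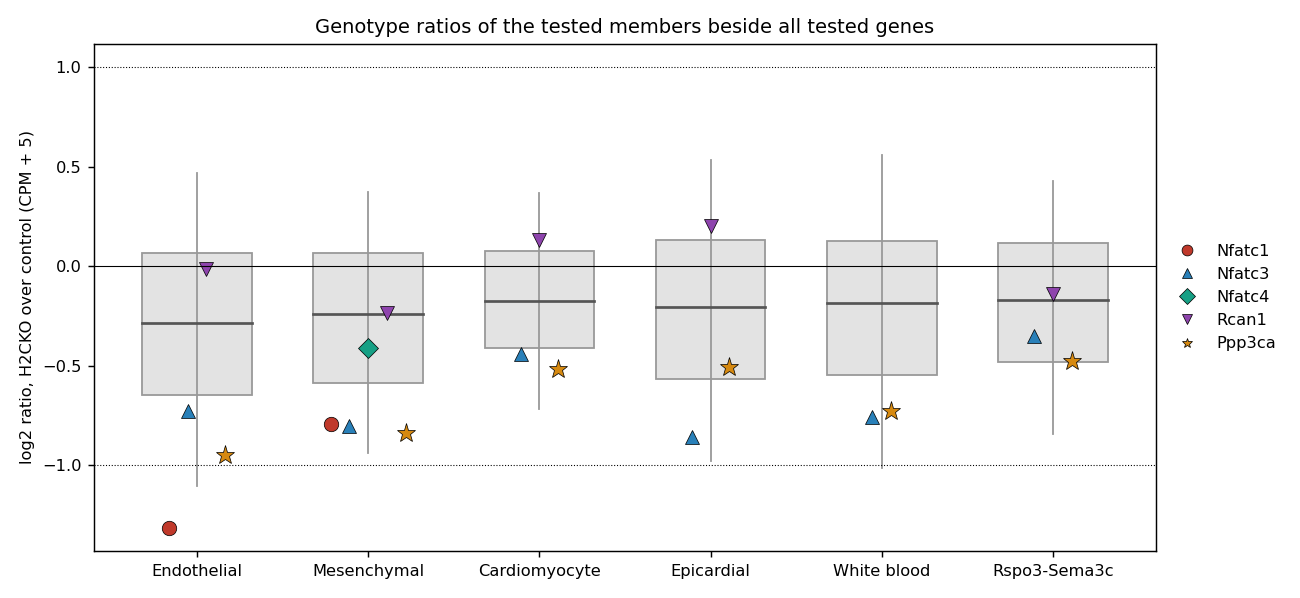
Log2 ratio of H2CKO over control (y axis, CPM plus 5) in 5 classes and the Rspo3-Sema3c cluster (x axis) for the members tested there (symbols), beside all tested genes (box, quartiles and median; line, the 5th to the 95th percentile); dotted lines mark 2-fold, and Nfatc2 was tested nowhere. Nfatc1 in endothelial-like cells is the only symbol beyond a dotted line, Nfatc3 and Ppp3ca are below the median gene in every class shown, and Rcan1 is at or above it.

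H2CKO endothelial-like cells were also split by whether a GFP UMI was seen. At 5000 UMIs per cell, 473 held one and 219 did not, and a cell without a GFP UMI may still carry the recombined reporter. Hand2 was lower in the cells with GFP, at 8.88 against 22.8 CPM, and both were under the control level of 229 CPM (unthinned). The label writes the Cre as an allele of Nfatc1, so a split by GFP is not independent of Nfatc1. Nfatc1 was higher in the cells with GFP, at 98.9 CPM (234 UMIs) against 54.8 CPM (60 UMIs), a ratio of 1.81 (1.35 to 2.44). Ppp3ca was also higher, at 239 against 148 CPM (ratio 1.62, 1.36 to 1.94), and Rcan1 was not, at 105 against 106 CPM (ratio 0.791 to 1.24).

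Cells with GFP were not spread evenly over the subclusters, since subcluster 1 had 201 with and 21 without. In subcluster 1 Nfatc1 was at 151 CPM with GFP and 143 CPM without it, and in subcluster 2 at 57.7 and 56.7 CPM (ratio 1.02, 0.635 to 1.65). In subcluster 3 Nfatc1 was at 62.0 and 30.3 CPM (ratio interval 0.978 to 4.68). At 5000 UMIs per cell the interval of the Nfatc1 ratio included 1 in each subcluster. Without thinning it excluded 1 in subcluster 3, at 46.7 against 27.1 CPM (ratio 1.72, 1.07 to 2.88), and included 1 in subclusters 1 and 2. Ppp3ca differed by reporter within subcluster 1, at 372 against 200.0 CPM (ratio 1.86, 1.20 to 3.04), with 21 cells without GFP. Rcan1 in the same cells was lower with GFP, at 118 against 200.0 CPM (ratio 0.592, 0.370 to 0.992). Without thinning that Rcan1 interval included 1 (0.543 to 1.17). In subclusters 2 and 3 the intervals of the Ppp3ca and Rcan1 ratios included 1. In H2CKO mesenchymal-like cells the order was reversed for Ppp3ca, with 32.8 CPM in 348 cells with GFP and 60.7 CPM in 669 without (ratio 0.540, 0.395 to 0.727), and Nfatc1 was at 12.6 and 14.6 CPM. There Nfatc3 (ratio 0.542, 0.312 to 0.8998) and Rcan1 (0.706, 0.494 to 0.993) were also lower with GFP, and Nfatc2 was higher (2.18, 1.02 to 4.69; 17 and 15 UMIs). Without thinning the intervals of Nfatc3 (0.599 to 1.10) and Rcan1 (0.663 to 1.01) included 1, and Ppp3ca was at 0.755 (0.633 to 0.897).

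**Figure D5:**
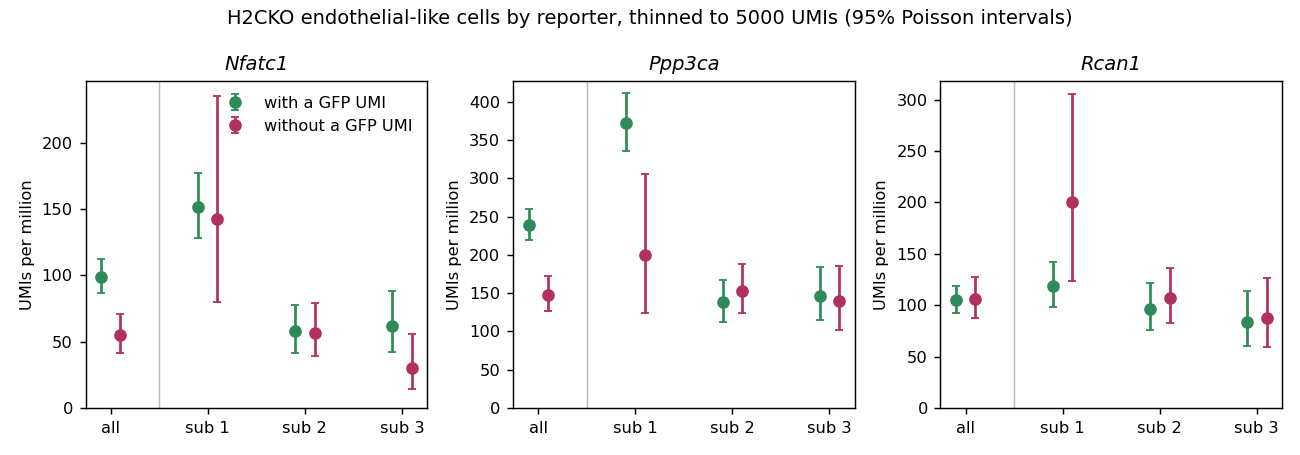
Nfatc1, Ppp3ca and Rcan1 in CPM (y axis) in H2CKO endothelial-like cells with (green) and without (red) a GFP UMI, each cell thinned to 5000 UMIs, in the whole class and in subclusters 1 to 3 (x axis), with exact Poisson intervals. In the whole class Nfatc1 is 98.9 CPM with and 54.8 CPM without GFP, while the pairs of Nfatc1 values within subclusters overlap.

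The other genes of the pathway were read as a list of 27, chosen by role. In endothelial-like cells 19 were tested, 5 were past 2-fold lower and 0 higher (background 7.78% and 0.886%). Of the 19, 18 were below 0, as were 70.0% of all genes tested. Within the subclusters 1 of 19 tested was past 2-fold lower in subcluster 1 (3.23% of all genes), 2 of 18 in subcluster 2 (11.3%) and 3 of 16 in subcluster 3 (8.56%). In the whole class their median log2 ratio was -0.62, beside -0.29 for all genes tested. Of the calcium-store genes, Stim2, a sensor of the store, stood at 64.4 CPM in the control and 20.6 CPM in H2CKO (log2 ratio -1.44). The store channels Itpr2 (102 to 36.8 CPM, -1.35) and Itpr3 (24.7 to 9.41 CPM, -1.04) were past 2-fold lower, and Itpr1 was at -0.83. Orai1, the plasma-membrane channel that STIM proteins open, was at 59.1 and 61.6 CPM.

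Of the kinases that export NFAT, Gsk3b was past 2-fold lower, at 307 CPM in the control and 141 CPM in H2CKO (log2 ratio -1.10), while its paralog Gsk3a was at -0.20. Nfat5, the relative that responds to tonicity and not to calcineurin, was at 124 and 56.9 CPM (log2 ratio -1.05). The remaining calcineurin subunits were less abundant in endothelial-like cells than Ppp3ca: the beta catalytic gene Ppp3cb stood at 71.1 and 38.5 CPM, the regulatory gene Ppp3r1 at 42.8 and 26.3 CPM, the gamma catalytic gene Ppp3cc at 6.17 and 3.28 CPM, and Ppp3r2 had no UMI in either library. These are levels from 3′ ends and are not divided by length. With ratios centred on the median gene, 2 of the 19 genes were past 2-fold lower, beside 2.49% of all genes tested. With the gene-span trend taken out 0 of the 19 and 0 members were, beside 2.06% of all genes.

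In mesenchymal-like cells 16 of the 27 pathway genes were tested and 2 were past 2-fold lower (3.57% of all genes), Itpr2 (45.7 to 16.9 CPM) and Nfat5 (73.5 to 33.7 CPM). Centred on the median gene, 0 were. In cardiomyocyte-like cells 16 were tested and 1 was past 2-fold, on the higher side (0.234% of all genes): Myoz2, which encodes a sarcomeric calcineurin-binding protein, stood at 92.4 CPM in the control and 192 CPM in H2CKO (log2 ratio 1.02). In that class the 12 mesenchymal markers summed to 605 and 312 CPM, the 7 smooth muscle markers to 4135 and 2748 CPM and the 12 erythroid markers to 11646 and 22954 CPM, and their part in its ratios was not tested. Myoz2 was also the 1 of 19 tested that was past 2-fold higher in epicardial-like cells (1.47% of all genes), at 2.04 and 21.8 CPM, where the 12 cardiomyocyte markers summed to 4152 CPM in the control and 9019 CPM in H2CKO. Their part in that value was not tested. Among white blood cell-like cells 17 were tested and 1 was past 2-fold lower (5.35% of all genes), Ppp3cb at 59.7 and 20.7 CPM, from 74 and 27 UMIs. The 8 megakaryocyte markers summed there to 2634 and 1016 CPM, the 12 cardiomyocyte markers to 3840 and 1804 CPM and the 12 erythroid markers to 31714 and 51207 CPM, and their part in the Ppp3cb value was not tested. In the Tcf21 cluster 16 were tested and 3 were past 2-fold lower (7.24% of all genes). These were Nfat5 (65.6 to 18.8 CPM), Dyrk1a (30.7 to 9.39 CPM) and Itpr1 (34.5 to 11.95 CPM), from 11 to 22 UMIs each in H2CKO.

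Similarity of level over the 18 sums of 9 groups of cells and 2 libraries was described by Pearson's r of log2(CPM + 5), over 5049 genes. The sums share libraries and depth, and the values are descriptions. For Nfatc1 the most similar genes were Notch1 (r = 0.98), Calcrl, Arap3, Grasp and Flt1 (0.95), and for Ppp3ca they included Apc (0.96), Spag9, Trim8 and Itpr1 (0.95). For Rcan1 they were Mmp15 (0.95), Lmo7, Crip2, Igfbp2 and Cavin1 (0.89), and for Nfatc4 Foxp2 (0.94), Mecom, Mex3b, Igfbp7 and Ncam1 (0.93). The Nfatc3 list included Pom121, Tet3, Fnbp4 and Gigyf2, each at 0.98, and the Nfatc2 list was led by Bbip1 (0.87) and Angpt1 (0.86), from levels under 8 CPM.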

How the data were processed

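Each library came as a deposited matrix of UMI counts without normalisation; per the file headers, columns are barcodes and lines are Ensembl gene IDs. They also deposited embedding coordinates for a subset of barcodes, a score without a unit, used here only to mark that subset. Per the submitters' processing notes, Cell Ranger 5.0.1, Seurat 4 and GRCm38.p6 were used; their settings are not given in the sources used here. No steps before these counts were rerun. The 6 genes and all lists were chosen with earlier results of these data known.

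The cell filter required 500 or more detected genes and no more than 10% of UMIs from mitochondrial genes. Scrublet (scanpy 1.11.5, expected rate 6%) marked 1048 control cells. It marked 0 H2CKO cells, under the set minimum of 0.5%, so the 607 with the highest 5% of scores were removed. The shares removed therefore differed, 10.6% against 5.00%. Of the 22401 features, 22285 matched a symbol. The 2000 most variable genes, without the members, pathway genes, haemoglobin, mitochondrial and sex-linked genes, Hand2 and reporters, gave 30 principal components. Cells were joined to 15 neighbours per library and clustered (leidenalg 0.10.2, resolution 1) into 14 clusters, named from 13 marker lists. The Rspo3-Sema3c cluster matched a smooth muscle list, but no gene of that list was among its leading genes, and it was left unnamed after its genes were seen. Subclusters used resolution 0.5, and 1 for the finer division.

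For each class, the UMIs of a library were added up over cells and expressed as CPM of their total. Log2 ratios are of CPM plus 5, which understates changes of low genes, and a gene was past 2-fold at 1 or more in size. The computation was checked on simulated counts. Intervals are 95% (scipy 1.17.1). Named were the 6 genes, pathway genes past 2-fold (at most 6 per class), the 5 most similar genes per member reaching 50 CPM in groups of 50 or more cells, and label checks. Some genes that this rule names are not reported here. Other pathway genes and markers were named for their role, after their values were seen. Gene spans come from GENCODE vM21 (GRCm38). Alternatives changed the cell filter, doublets, clustering, depth, pseudocount, filter on low values, centring, gene-span trend and subcluster mix. Libraries have 1 replicate each, so no test over samples was made.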

Additional observations from a re-analysis of the deposited data

Results flagged for a closer look

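As processed here, the Rcan1 ratios lay on opposite sides of 0 in cardiomyocyte- and mesenchymal-like cells. Its log2 ratio of H2CKO over control was 0.13 in cardiomyocyte-like cells (88.3 and 97.2 CPM) and -0.24 in mesenchymal-like cells (42.5 and 35.4 CPM), and neither interval of the ratio included 1. The difference between these classes was not tested, since each genotype has 1 library. With every cell thinned to 5000 UMIs the Rcan1 value in cardiomyocyte-like cells was 0.04. In mesenchymal-like cells it was -0.08 at the same mix of subclusters and 0.0049 centred on the median gene, where the cardiomyocyte-like value was 0.31. With the gene-span trend taken out, both were above 0, at 0.51 and 0.33.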

How the results depend on the processing

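All values here are log2 ratios of H2CKO over control unless they are counts. No paired analysis was possible because each genotype has 1 library. In endothelial-like cells Nfatc1 (-1.31) was at -0.84 with stricter cells, -0.73 with the cells of the authors' embedding (-1.44 and -1.29 with the unnamed endothelial cluster added), -1.19 with CPM plus 20, -1.03 centred on the median gene, -0.70 with the span trend taken out and -0.87 at the same mix of subclusters, coarse or fine. Ppp3ca (-0.95) was at -1.05 with stricter cells, -1.01 and -0.97 with the unnamed cluster added to the stricter and the embedding's cells, -0.66 centred, -0.32 without the span trend, and -0.64 and -0.68 at the same coarse and fine mix. Rcan1 (-0.02) was at 0.16 with stricter cells, -0.18 with stricter cells and the unnamed endothelial cluster added, 0.38 with the embedding's cells, 0.17 thinned, 0.27 centred, 0.58 without the span trend, and 0.21 and 0.26 at the same coarse and fine mix. In mesenchymal-like cells Nfatc1 (-0.79) was at -0.48 with CPM plus 20 and -0.20 without the span trend. Members past 2-fold lower in endothelial-like cells numbered 1, but 0 with the embedding's cells (1 with the unnamed cluster added), 2 with stricter cells and the unnamed cluster, and 0 without the span trend. Pathway genes past 2-fold lower there numbered 5, but 3 with stricter cells, 1 with the embedding's cells (with the unnamed cluster added, 6 for the stricter and 5 for the embedding's cells), 3 without doublet removal, 3 with a filter of 100 CPM, 2 centred, 0 without the span trend and 3 with CPM plus 20. The pathway count was 7 with each cell thinned to 5000 UMIs. The cause of these changes was not tested. All alternatives to these 6 results, those above included, were sorted by size of change. In 50 the value stayed within its spread (a count, within 1.5 times), and in 32 it moved further. A called direction was reversed in 0. The member count of 1 with stricter cells is Ppp3ca, not Nfatc1. The subcluster mixes and the added unnamed cluster were chosen after the data were seen. Pooling all endothelial clusters gave the class as reported, since it was 1 cluster. Depth limits Nfatc2 most, with 13 and 17 UMIs in endothelial-like cells. The single library per genotype, unequal doublet removal and more globin transcripts in H2CKO limit every ratio.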
